A study of Mus musculus with 7 samples.

Results

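This account covers 10 mouse genes that sense or move bile acids, read from the duodenum of mice given an LXR agonist or vehicle. The genes were chosen by symbol, for their known roles, from the 47069 genes of the deposited table. They are the nuclear receptor genes Nr1h4, Nr0b2 and Nr5a2, the hormone gene Fgf15, and the carrier genes Slc10a2, Fabp6, Slc51a, Slc51b, Abcc2 and Abcc3. Each symbol matched 1 row. Duodenal RNA was sequenced from 7 male C57BL/6 mice aged 8 to 12 weeks (C57BL/6J in the series description), with 1 library per mouse. In the T09 group, 3 mice received T09 (T0901317, a synthetic agonist of the liver X receptors) at 50 mg/kg/day. In the vehicle group, 4 mice received 0.5% carboxymethylcellulose. The sources used here give neither the route nor the length of treatment, and no receptor knockout was part of the groups, so effects of T09 through other receptors cannot be told apart.

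Bile acids are made from cholesterol in the liver, reach the duodenum in bile, and are mostly taken back in the ileum. There Slc10a2 carries them in across the apical membrane, Fabp6 binds them in the cytosol, and the heterodimer of Slc51a and Slc51b releases them to the blood. Nr1h4 encodes FXR, the nuclear receptor that bile acids activate. In the ileum FXR induces Fgf15, a hormone that lowers bile acid synthesis in the liver, and Nr0b2 (SHP), a co-repressor that acts on Nr5a2 (LRH-1). Abcc2 and Abcc3 are pumps for conjugated compounds, bile acid conjugates among them, on the apical and the basolateral side of the cell.

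T09 libraries held 18040531 to 20494485 counts, and vehicle libraries 15395535 to 19007647. Duodenal epithelium markers took 0.604% to 0.627% of counts with T09 and 0.559% to 0.691% with vehicle, and all 8 were tested. That sum held unlike changes: the fatty acid binding protein Fabp1 rose to 4564 ± 1031 CPM with T09, against 2485 ± 204 CPM with vehicle (SD, n = 3 and 4; edgeR adjusted p = 0.0167), and the adenosine deaminase Ada averaged 1310 ± 788 CPM with T09 and 3206 ± 649 CPM with vehicle without passing (SD, n = 3 and 4; edgeR adjusted p = 0.103). Fabp1 and Ada were named after their values were seen, as were the next genes. Slc40a1, S100g, Cybrd1 and Pdx1 read 106, 214, 12.7 and 37.9 CPM in vehicle replicate 1. The other libraries read at most 25, 159.6, 3.57 and 25.7 CPM. Onecut2 and Ada were also highest in vehicle replicate 1, at 82.1 and 3746 CPM, though Ada read 3739 CPM in vehicle replicate 3. Fabp1 and Gata4 were not highest there. Among T09 mice, replicate 1 was the highest for Pdx1, Slc40a1, Cybrd1, Ada and Gata4, but not for Onecut2, S100g and Fabp1. edgeR called none of Slc40a1, S100g, Cybrd1 and Pdx1 (Cybrd1 was lower at an unadjusted p under 0.05). Whether the libraries match in position along the duodenum was not tested. Colonic and hepatocyte markers took at most 0.00201% and 0.00209% in any library. Enterocyte markers took 3.38% to 3.66% with T09 and 3.73% to 4.07% with vehicle, so the groups did not overlap. Of the 14 enterocyte genes, all tested, 9 lay below 0 on the log2 scale and 5 above. None was called by edgeR (3 lower at an unadjusted p under 0.05), and DESeq2 called 1 lower. General epithelial markers took 1.19% to 1.39% with T09 and 1.55% to 1.76% with vehicle, and the 12 genes lay below 0 on the log2 scale without any being called (7 of 12 at an unadjusted p under 0.05 by edgeR, 3 called lower by DESeq2). Smooth muscle markers took 0.0455% to 0.0734% with T09 and 0.162% to 0.261% with vehicle, and all 12 fell (median log2 fold change -2.14). Markers of enteric neurons and glia took 0.000732% to 0.000820% with T09 and 0.00183% to 0.00315% with vehicle. All 9 tested lay below 0 on the log2 scale, and edgeR called 5 lower (8 at an unadjusted p under 0.05, 6 called lower by DESeq2). Adipocyte markers took 0.0107% to 0.0148% with T09 and 0.0163% to 0.0358% with vehicle, with none of 5 called by edgeR (5 lower at an unadjusted p under 0.05, and 2 called lower by DESeq2). Adipoq, Plin1 and Cfd read 25.8, 24.7 and 70.3 CPM in vehicle replicate 4. They read at most 1.97, 2.16 and 7.38 CPM in any other library. Cidec was abundant in every library, at 109 to 143 CPM with T09 and 152 to 202 CPM with vehicle. It made up most of the adipocyte share in every library, so that share mainly reports Cidec. The part of these shifts in the results on bile acid genes was not tested, and in whole-tissue RNA fewer cells of a type and less RNA per cell cannot be told apart.

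Of the 10 genes, 3 had few or no counts in this segment and 7 were expressed. With T09, Abcc2 rose 1.58-fold (95% interval 1.28 to 1.95), and it was the only one of the 7 genes tested to pass. The other 6 had log2 fold changes between 0.03 and 0.64 and did not pass. Calls were made with edgeR's quasi-likelihood test at a threshold of 0.05, after Benjamini-Hochberg adjustment over all 14250 genes tested. That rule called 4.31% of all genes tested, 1.44% higher and 2.87% lower. With libraries scaled to 12 epithelial genes instead, 5 of the 10 genes were higher, but so were 2834 of all genes, against 436 lower (205 and 409 with TMM). No member was called lower (0 of 7 also at an unadjusted p under 0.05, and 0 by DESeq2 and limma-voom). At an unadjusted p under 0.05, 5 of the 7 were higher (Abcc2, Nr1h4, Abcc3, Nr5a2 and Slc51a), beside 7.26% of all genes tested higher and 10.6% lower. The median log2 fold change of the 7 was 0.38, beside 0.02 over all genes tested. Groups that do not overlap, with every T09 mouse on one side of every vehicle mouse, were seen for 2 of the 7, both higher (Abcc2 and Nr5a2), and for 16.8% of all genes tested (7.07% higher, 9.69% lower). Values per library are in CPM, read counts divided by the TMM-scaled library size.

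**Figure D1:**
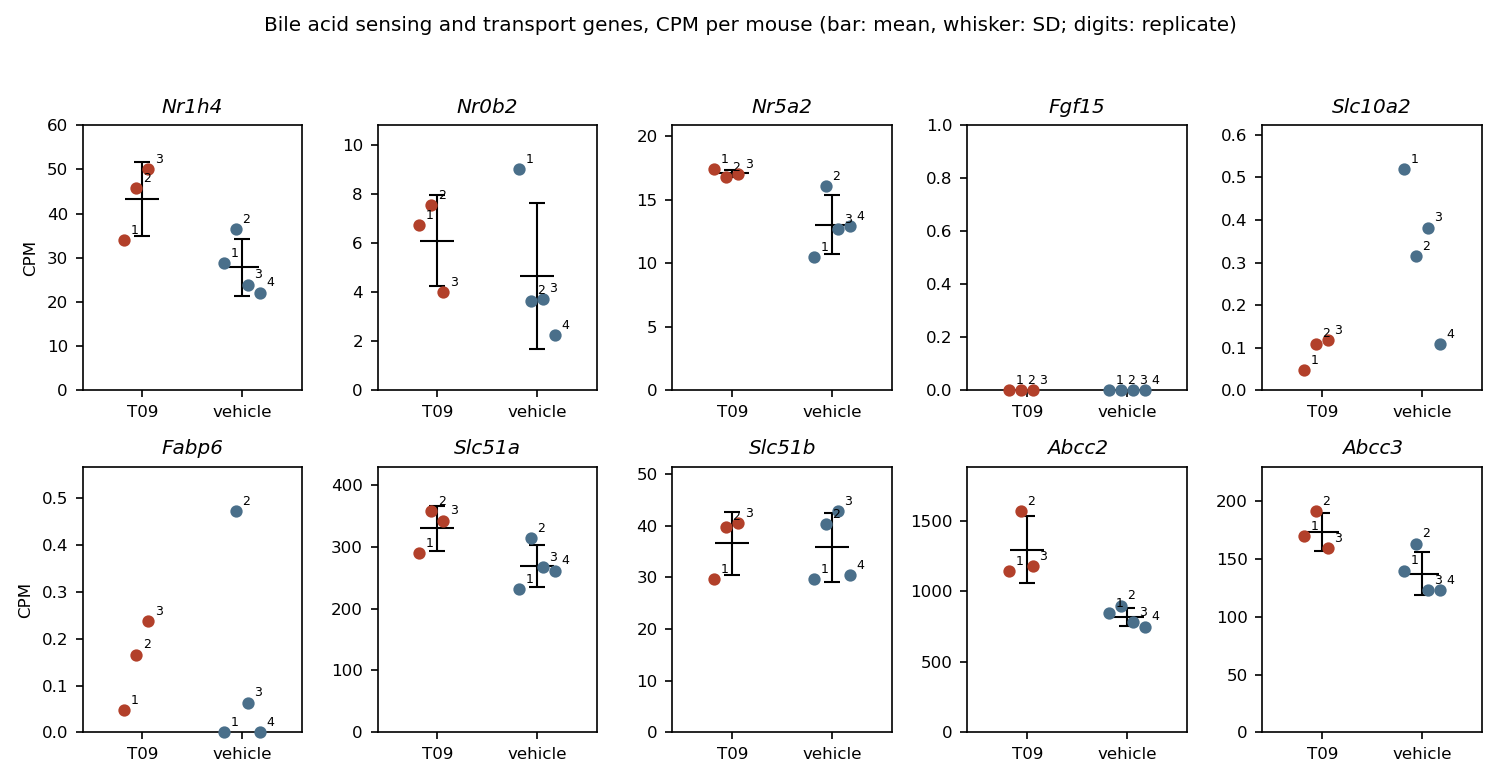
CPM of each of the 10 genes in each mouse, T09 (red) left of vehicle (blue), with linear axes from 0. Horizontal bars and whiskers are mean and SD and are drawn only for the 7 genes tested; digits are replicate numbers. Abcc2 lies at 1141 CPM or more in the T09 mice and at 899 CPM or less in the vehicle mice, and Fgf15 lies at 0 throughout.

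The hormone, the apical importer and the cytosolic binding protein of the ileal pathway were at or near 0. Fgf15 had 0 counts in every library, which allows at most 0.0233 CPM over all 128826275 counts and between 0.146 and 0.195 CPM in a single library (3 counts of the total; this limit and the intervals of the next sentences cover counting error only). In the GENCODE M21 annotation the antisense genes Gm26793 and Gm39119 overlap Fgf15, and Gm26793 also had 0 counts in every library. The sources used here do not say whether reads in such overlaps were counted. The 0 counts of Fgf15 and Gm26793 therefore cannot tell absence from reads left out, which the limit above does not cover. Slc10a2 had 1, 2 and 2 counts in T09 libraries and 10, 6, 6 and 2 in vehicle libraries. Summed, that was 0.0875 CPM with T09 (exact Poisson 95% interval 0.0284 to 0.204) and 0.335 CPM with vehicle (0.214 to 0.498). These sums differed beyond counting error, but vehicle replicate 4 lay within the T09 libraries, so the groups overlapped. Fabp6 had 1, 3 and 4 counts with T09 and 0, 9, 1 and 0 with vehicle, with 9 of the 10 vehicle counts in 1 mouse. None of these 3 genes passed the filter on low counts, so they were not tested. In the fit without a filter, Slc10a2 had an adjusted p of 0.319 and Fabp6 of 0.976 by edgeR over 24056 genes.

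Genes that govern where the ileal set is expressed were abundant. Gata4, a factor that represses ileal genes in the proximal intestine of mice, averaged 225 ± 31.6 CPM with T09 (SD, n = 3) and 237 ± 14.0 CPM with vehicle (SD, n = 4). The difference was -0.07 on the log2 scale (SE 0.11, edgeR adjusted p = 0.789), and its sign turned with epithelial scaling and without T09 replicate 3. Hnf4a, a master regulator of enterocyte genes, averaged 602 ± 176 CPM with T09 and 734 ± 13.5 CPM with vehicle (SD, n = 3 and 4; log2 fold change -0.29, SE 0.17, edgeR adjusted p = 0.432). Without T09 replicate 1 it was called lower (log2 fold change -0.54, edgeR adjusted p = 0.0304). Of the 8 listed genes for the Fgf15 receptor and regional control, 7 were tested and none was called by edgeR, DESeq2 or limma-voom (1 lower at an unadjusted p under 0.05).

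Among the sensors, Nr1h4 (FXR; chromosome 10, 89454234 to 89533585, GRCm38) read 33.9, 45.8 and 50.0 CPM in T09 mice, against 28.8, 36.4, 23.9 and 22.1 CPM in vehicle mice. The lowest T09 mouse lay below the highest vehicle mouse, and the other 2 lay above all vehicle mice. Its log2 fold change of 0.64 (SE 0.19, interval 0.21 to 1.07) was nearly that of Abcc2, but it did not pass (edgeR adjusted p = 0.110). DESeq2 called it (adjusted p = 0.0243), and edgeR did so without T09 replicate 1 (adjusted p = 0.0424) or without vehicle replicate 2 (adjusted p = 0.0453). Over the 15 alternatives its adjusted p ran between 0.0199 and 0.362.

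Nr5a2 (LRH-1; chromosome 1, 136842571 to 136960448), a receptor that drives cholesterol and bile acid genes, was steady among treated mice at 17.4, 16.8 and 17.0 CPM. Vehicle mice spread more widely, at 10.5, 16.1, 12.7 and 12.9 CPM. The groups did not overlap, but the log2 fold change of 0.39 (SE 0.15, interval 0.05 to 0.74) did not pass (edgeR adjusted p = 0.219). Nr0b2 (SHP; chromosome 4, 133553376 to 133556536) stood at 6.76, 7.57 and 4.02 CPM with T09 and at 9.03, 3.67, 3.75 and 2.26 CPM with vehicle. The highest of all 7 mice was a vehicle mouse, replicate 1. That same library held 0.0795% of its counts in pancreatic acinar markers, against at most 0.00140% in T09 libraries and 0.00135% in the other vehicle libraries. Nr0b2 and Nr5a2 are both expressed in pancreas. In vehicle replicate 1, Nr5a2 read 10.5 CPM, the lowest of all 7 mice. The duodenal markers Slc40a1, S100g, Cybrd1, Pdx1, Onecut2 and Ada were also highest in vehicle replicate 1, while Fabp1 and Gata4 were not. The part of acinar RNA or of sampling position in the values of Nr0b2 and Nr5a2 was not tested. Nr0b2 differed by 0.38 on the log2 scale (SE 0.43, interval -0.58 to 1.35, edgeR adjusted p = 0.705), and without vehicle replicate 1 it was 0.92 (SE 0.31, edgeR adjusted p = 0.188).

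Other receptors for bile acids showed no call. Of 8 listed receptors and partners, 6 were tested and none passed with edgeR, DESeq2 or limma-voom (none at an unadjusted p under 0.05), with a median log2 fold change of -0.09. Vdr, which binds the secondary bile acid lithocholic acid besides vitamin D, averaged 408 ± 31.9 CPM with T09 and 459 ± 108 CPM with vehicle (SD, n = 3 and 4; edgeR adjusted p = 0.655). Nr1i2 (PXR), a sensor of xenobiotics and bile acids that T0901317 also activates, averaged 262 ± 43.5 CPM with T09 and 219 ± 18.6 CPM with vehicle (SD, n = 3 and 4; log2 fold change 0.26, SE 0.13, edgeR adjusted p = 0.334).

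Abcc2 (MRP2; chromosome 19, 43782192 to 43840740), the apical pump for glucuronide, glutathione and sulfate conjugates, was the most abundant of the 10 genes by counts. It read 1141, 1568 and 1180 CPM in T09 mice, against 844, 899, 782 and 750.1 CPM in vehicle mice. All 3 treated mice lay above all 4 controls, and T09 replicate 2 lay well above the other 2. The means were 1296 ± 236 CPM with T09 (SD, n = 3) and 819 ± 66.1 CPM with vehicle (SD, n = 4). On the log2 scale the rise was 0.66 (SE 0.13, edgeR adjusted p = 0.0265). The direction held in all 15 alternatives, but the call was lost in 5 of the 7 fits that left out 1 library, all but those without T09 replicate 1 or vehicle replicate 2, and with the replicate block (0.61, adjusted p = 0.0607). Over all alternatives the adjusted p ran between 5.29e-05 (DESeq2) and 0.104 (edgeR without T09 replicate 2, where the rise was 0.50). Abcc2 made up 65.8% to 70.4% of the counts of the 10 genes with T09 and 61.0% to 65.3% with vehicle.

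Abcc3 (MRP3; chromosome 11, 94343295 to 94392997), the basolateral pump of the same family, lay at 169.8, 191 and 159 CPM with T09 and 139.7, 163, 123 and 123 CPM with vehicle. T09 replicate 3 fell just below vehicle replicate 2, so the groups overlapped. Its log2 fold change of 0.34 (SE 0.12, interval 0.06 to 0.61) did not pass (edgeR adjusted p = 0.188).

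Slc51a (chromosome 16, 32475522 to 32487879), the larger subunit of the basolateral bile acid exporter, was well expressed in the duodenum. It read 289, 357 and 342 CPM in T09 mice, against 231, 314, 267 and 261 CPM in vehicle mice. The groups overlapped through T09 replicate 1 and vehicle replicate 2, and the log2 fold change of 0.30 (SE 0.13, interval 0.01 to 0.58) did not pass (edgeR adjusted p = 0.256). Slc51b (chromosome 9, 65412753 to 65422773), the partner without which the exporter does not reach the membrane, read 29.6, 39.8 and 40.5 CPM with T09 and 29.7, 40.3, 42.8 and 30.5 CPM with vehicle. Both groups spanned nearly the same range. Slc51b differed by 0.03 on the log2 scale (SE 0.17, edgeR adjusted p = 0.946), with an interval of -0.35 to 0.41 that leaves room for a change of up to 1.33-fold higher or to 0.787 of the vehicle level. The sign turned under library-size scaling, with the replicate number as a block and in 4 of the 7 fits without 1 library.

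**Figure D2:**
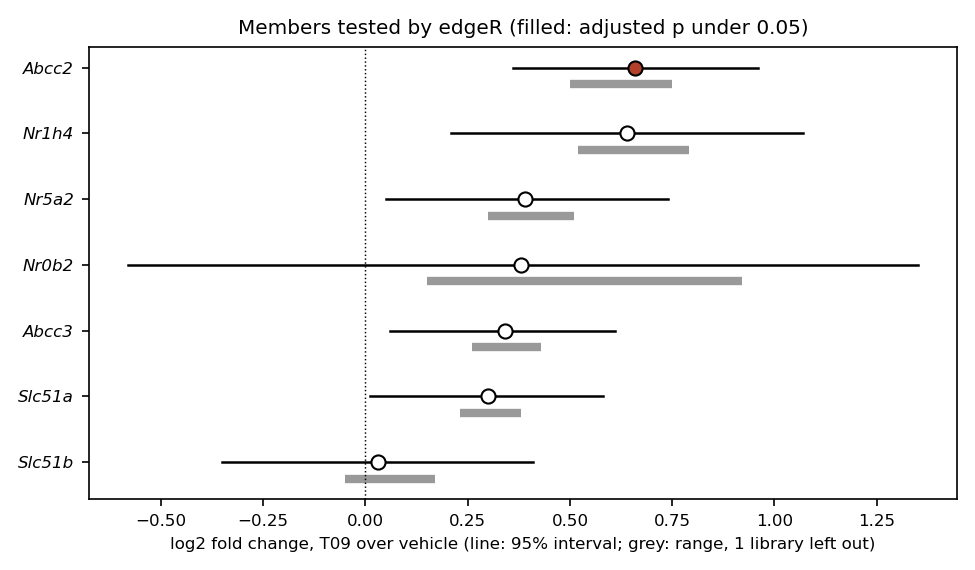
Log2 fold change, T09 over vehicle, of the 7 genes tested, with 95% intervals (black) and the range when 1 library is left out (grey); the filled point is the gene with an adjusted p under 0.05. The intervals of Nr0b2 and Slc51b include 0, and the grey range of Slc51b, -0.05 to 0.17, crosses it.

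Ratios of counts within a library do not depend on scaling between libraries, and 2 such ratios were compared after the values had been seen. Abcc2 had 6.72, 8.19 and 7.42 counts per Abcc3 count in T09 libraries, against 6.04, 5.50, 6.34 and 6.08 in vehicle libraries. All T09 libraries were higher, 1.24-fold by mean log2 ratio, at the smallest p that 35 splits allow (two-sided exact permutation p = 0.0286, 0.0572 adjusted over the 2 ratios). Slc51a had 9.77, 8.96 and 8.44 counts per Slc51b count with T09 and 7.79, 7.78, 6.25 and 8.56 with vehicle. The groups overlapped (two-sided exact permutation p = 0.0857, 0.0857 adjusted). With 35 splits, the first ratio could not pass 0.05 after adjustment unless the second also reached the smallest p, so its adjusted value was set by the design. A ratio shows only unequal change of its 2 genes.

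**Figure D3:**
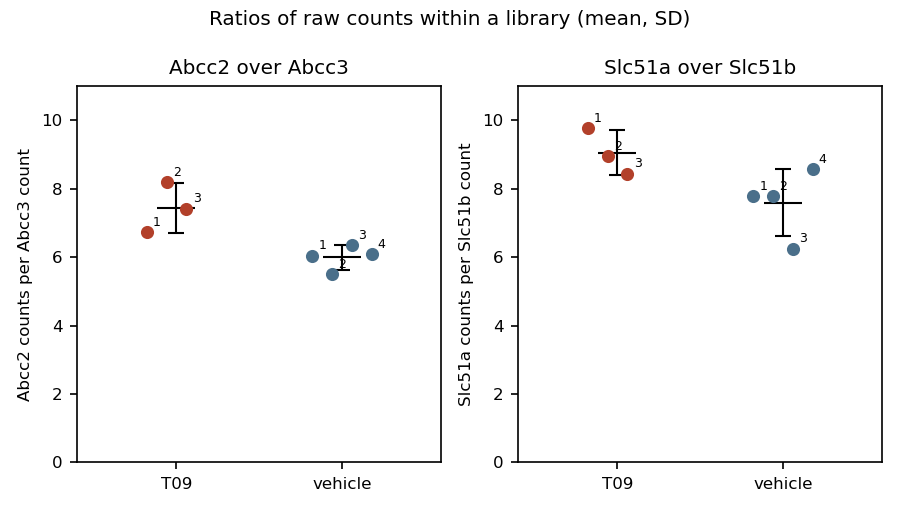
Ratio of raw counts within each library, Abcc2 over Abcc3 (left panel) and Slc51a over Slc51b (right panel), T09 left of vehicle, with mean and SD; axes start at 0. The lowest T09 library of the first ratio, 6.72, lies above the highest vehicle library, 6.34, and the groups of the second ratio overlap.

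Per length, with the lengths listed in the deposited table, Slc51a averaged 206 ± 22.2 RPKM with T09 and 168 ± 21.3 RPKM with vehicle, Abcc2 161 ± 29.4 RPKM with T09 and 102 ± 8.23 RPKM with vehicle, and Slc51b 75.1 ± 12.5 RPKM with T09 and 73.4 ± 13.7 RPKM with vehicle (SD, n = 3 and 4). Abcc3, Nr1h4, Nr0b2 and Nr5a2 followed at 27.4, 13.8, 4.13 and 2.75 RPKM in vehicle mice, and Fabp6 and Slc10a2 stood below 1 RPKM in every library. Among the 7 genes tested, the vehicle ranges of neighbours in this order did not overlap, except those of Nr0b2 and Nr5a2. With T09 the ranges of Slc51a and Abcc2 overlapped as well. The order rests on the length used. The deposited FPKM values imply 2331 bases for Abcc2 in place of the listed 8027, and on that scale Abcc2 led at 545 ± 96.7 FPKM with T09 and 356 ± 27.5 FPKM with vehicle. Slc51a had 201 ± 15.3 FPKM with T09 and 169.8 ± 20.9 FPKM with vehicle (SD, n = 3 and 4), while Nr5a2 moved above Nr0b2. Abcc3, with 2327 bases in place of the listed 5005, had 73.1 ± 8.25 FPKM with T09 and 59.8 ± 7.93 FPKM with vehicle, and its range overlapped that of Slc51b at 73.3 ± 9.24 FPKM with T09 and 74.3 ± 14.0 FPKM with vehicle (SD, n = 3 and 4). For Slc51a and Slc10a2, the counted region also lacked 1018 and 2404 bases at the 3′ end of the GENCODE M21 gene, so reads from there would not enter their counts.

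Among vehicle mice, replicate 2 was the highest for 5 of the 7 genes tested (Nr1h4, Nr5a2, Slc51a, Abcc2 and Abcc3) and for 25.9% of all genes tested. Among T09 mice, replicate 2 was the highest for 4 of the 7 and for 27.6% of all genes, and replicate 1 the lowest for 4 of the 7 and for 39.7% of all genes. Abcc2 and Nr1h4 were both called without vehicle replicate 2 and without T09 replicate 1, and none of the 10 genes was called in the other 5 fits without 1 library.

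The 3 genes most like Abcc2 over the 7 libraries, by the mean absolute difference of log2 CPM after centring each gene, were Hadha (0.0859), Tgoln1 (0.0949) and G6pdx (0.102). Their log2 fold changes were 0.58 (SE 0.10), 0.55 (SE 0.10) and 0.53 (SE 0.09), with edgeR adjusted p of 0.0139, 0.0205 and 0.0164. These values follow in part from the choice, since likeness was measured over the same libraries, and are descriptions. Hadha encodes a subunit of the mitochondrial trifunctional protein and G6pdx the first enzyme of the pentose phosphate pathway.

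Promoter windows of 250 bases before and 50 after the transcript start (RefSeq, GRCm38.p6) were at hand for 8 of the 10 genes, in 9 windows. They were searched on both strands for the nuclear receptor hexamer AGGTCA, for a pair of hexamers inverted with 1 base between them (AGGTCANTGACCT, the arrangement FXR with its partner RXR is known to bind), for a direct pair 4 bases apart (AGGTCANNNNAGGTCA, the arrangement of LXR with RXR), and for the GATA site AGATAA. The pairs contain the hexamer. The hexamer lay in windows of 5 genes (Nr1h4, Nr5a2, Slc51a, Slc51b and Abcc2) and in 16.3% of all 32851 windows. The GATA site lay in windows of Nr1h4 and Nr5a2 and in 11.2% of all windows. No window of the 8 genes held either exact pair (0.00913% and 0.0152% of all windows). In a further search, added after the data were seen, up to 2 of the 12 fixed letters of the inverted pair could differ, which 1.14% of all windows matched. Among the 8 genes only Fabp6 had such a match, in 2 places. The stretches below are shown for the gene that was called, for the exporter pair and for the ileal gene Fabp6, which had few counts. Each is 30 bases on the gene's strand, 5′ to 3′, with the hexamer (on either strand) or the inverted-pair match in capitals.
Abcc2, chr19:43782247-43782276, plus strand: tgtcaggatgaaAGGTCAggagacttgcct
Slc51a, chr16:32487920-32487949, minus strand: tccttctcttctTGACCTatcagggaattt
Slc51b, chr9:65422959-65422988, minus strand: gtttgtcactggAGGTCAtgcattcgtggg
Fabp6, chr11:43601763-43601792, minus strand: gagcagagAGGTGAATGACCAcactctgtg
Fabp6, chr11:43601683-43601712, minus strand: tttccttaAGGTGAATAACCTtggggctcc
The hexamers of Abcc2, Slc51a and Slc51b begin 49, 58 and 203 bases before the RefSeq start, and the Fabp6 matches 222 and 142 bases before it. For Abcc2 that start lies inside the gene as listed in the deposited table, so the stretch shown also lies within the listed gene. The Nr1h4 window, 89506609 to 89506908 on chromosome 10, lies wholly inside the listed gene, which reaches 89533585 on the minus strand. The hexamer and GATA site of Nr1h4 therefore lie inside the listed gene too. These are matches of letters only, and binding was not measured.

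Of 9 known FXR targets outside the 10 genes, 8 were tested. Of these, 2 were called higher and 0 lower, beside 1.44% and 2.87% of all genes tested. The 8 had a median log2 fold change of 0.55 (0.02 over all genes tested). At an unadjusted p under 0.05 by edgeR, 4 were higher and 1 lower. Whether LXR acts on genes of this list was not tested. Il18, a cytokine of the epithelium, averaged 201 ± 33.5 CPM with T09 and 108 ± 20.3 CPM with vehicle (SD, n = 3 and 4; log2 fold change 0.90, SE 0.16, edgeR adjusted p = 0.0176). Ang, a ribonuclease with close copies in the mouse genome, averaged 16.7 ± 0.446 CPM with T09 and 10.2 ± 1.93 CPM with vehicle (SD, n = 3 and 4; log2 fold change 0.71, SE 0.16, edgeR adjusted p = 0.0421). Ang lost its call in each of the 7 fits without 1 library but that without vehicle replicate 4, and Il18 in those without T09 replicate 3 or vehicle replicate 4. With the replicate block both calls were lost (edgeR adjusted p = 0.0895 for Il18 and 0.0562 for Ang), and with library size alone that of Ang was (edgeR adjusted p = 0.0600). Nos2, named after its values were seen, had the lowest log2 fold change of the list at -3.16 (SE 1.16, edgeR adjusted p = 0.190), with 21.8 CPM in vehicle replicate 2 and at most 2.93 CPM in the other 6 libraries.

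Of LRH-1 targets, 5 of 7 were tested and 2 were higher, the sterol exporters Abcg5 and Abcg8, which are also LXR targets. Over all genes tested, 1.44% were called higher. Abcg5 averaged 1211 ± 152 CPM with T09 and 572 ± 30.1 CPM with vehicle (SD, n = 3 and 4; log2 fold change 1.08, SE 0.11, edgeR adjusted p = 0.00204). Abcg8 averaged 1008 ± 79.5 CPM with T09 and 529.7 ± 48.9 CPM with vehicle, a log2 difference of 0.93 (SE 0.11, edgeR adjusted p = 0.00313). The 3 other genes of that list tested, the cyclins Ccnd1 and Ccne1 and the lipoprotein receptor Scarb1, did not pass.

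Genes of bile acid synthesis differed widely in level. Cyp7a1, the rate-limiting enzyme of the classic pathway, was listed at 0 in every library. Cyp27a1, the mitochondrial sterol hydroxylase that starts the alternative pathway, averaged 124 ± 33.3 CPM with T09 and 133 ± 34.1 CPM with vehicle (SD, n = 3 and 4; edgeR adjusted p = 0.862), and was named after its values were seen. Of 17 genes of synthesis and conjugation, 9 were tested, with a median log2 fold change of 0.32. Of the 9, 2 were higher and 0 lower, beside 1.44% and 2.87% of all genes tested. Hsd17b4, the D-bifunctional protein, averaged 579 ± 87.2 CPM with T09 and 331 ± 28.6 CPM with vehicle (SD, n = 3 and 4; log2 fold change 0.81, SE 0.13, edgeR adjusted p = 0.00837). Acox2, the oxidase of bile acid side chains, averaged 38.4 ± 10.6 CPM with T09 and 16 ± 4.1 CPM with vehicle (SD, n = 3 and 4; log2 fold change 1.26, SE 0.24, edgeR adjusted p = 0.0205), and it lost the call without T09 replicate 2, T09 replicate 3 or vehicle replicate 4.

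Most other carriers of bile acids had too few counts to pass the filter. Of 9, 3 were tested and none was called by edgeR, DESeq2 or limma-voom (none at an unadjusted p under 0.05). Slco2b1, an organic anion uptake carrier, averaged 31.2 ± 3.96 CPM with T09 and 27.6 ± 1.10 CPM with vehicle, and the pump Abcc1 3.63 ± 0.494 CPM with T09 and 3.89 ± 0.329 CPM with vehicle (SD, n = 3 and 4; edgeR adjusted p = 0.475 and 0.857). Neither liver importer Slc10a1 nor liver exporter Abcb11 passed the filter on low counts.

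Targets of PXR, CAR and NRF2, to which Abcc2 and Abcc3 also belong, had more genes tested than any of the 6 other lists of related genes. All 15 were tested, with a median log2 fold change of 0.94. Of these, 8 were higher and 0 lower, beside 1.44% and 2.87% of all genes tested. Lists of unlike size cannot be ranked by their number of calls. Ephx1, an epoxide hydrolase, averaged 288 ± 33.0 CPM with T09 and 64.9 ± 15.5 CPM with vehicle (SD, n = 3 and 4; log2 fold change 2.15, SE 0.18, edgeR adjusted p = 7.23e-04). The P450 reductase Por, the retinal dehydrogenase Aldh1a1 and the carboxylesterase Ces2a had log2 fold changes of 0.96 (SE 0.11), 1.57 (SE 0.18) and 1.71 (SE 0.21), with edgeR adjusted p of 0.00289, 0.00313 and 0.00352. These 4 kept the call in all 15 alternatives. Ces2a has close relatives, so reads shared between copies leave its value uncertain. The lists were chosen with earlier results of these data known, so their counts are descriptions.

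**Figure D4:**
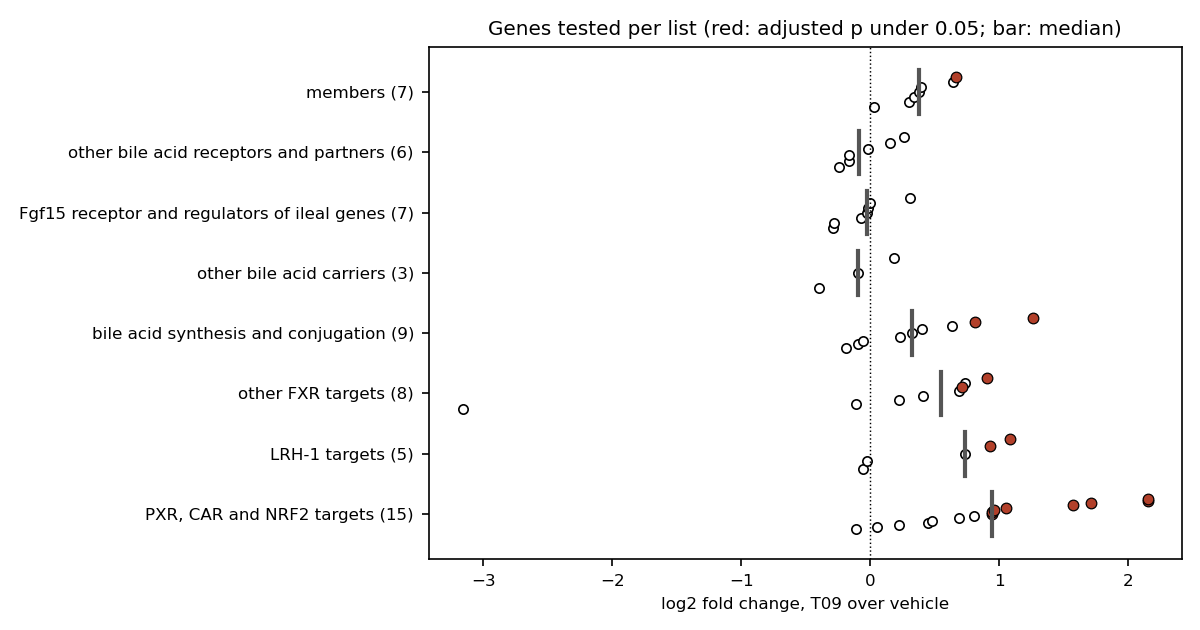
Log2 fold change, T09 over vehicle, of each gene tested in the 10-gene set (members) and 7 related lists; the number tested stands in brackets, red points have an adjusted p under 0.05 and bars mark medians. The medians run between -0.10 (other bile acid carriers) and 0.94 (PXR, CAR and NRF2 targets), and the point at -3.16 is Nos2.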

How the data were processed

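Libraries came from poly-A selected RNA by random priming, per the labels' protocols. DESeq 1.18.0, HTSeq 0.6.1, Bowtie2 2.2.3 and TopHat2 2.0.12 appear in the submitters' processing notes, which state no role for each. The build, the annotation and the use of strand in counting were not given in the sources used here. Overlapping genes therefore cannot be told apart by strand. Rasl12 lies opposite Slc51b, with 34 to 82 counts, and Gm26793 and Gm39119 lie opposite Fgf15. The authors deposited raw read counts per gene and, computed from them, FPKM values per library, both per the file headers. FPKM and RPKM were used only to describe levels. Of the 10 genes, 6 have the same coordinates in GENCODE M21 (GRCm38).

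Counts were analysed with edgeR 4.0.16 in R 4.3.3 (filterByExpr, TMM, glmQLFit and glmQLFTest), with all 7 libraries and no covariate. The SE is the log2 fold change divided by the square root of F, and 95% intervals use the moderated degrees of freedom. The test was checked on negative binomial counts simulated with the dispersions fitted to these libraries. The simulated counts held no batch or shift in cell types, so the check does not cover those. The p-values measure the spread between these libraries, and any preparation batches were not stated. Alternatives were DESeq2 1.42.0 and its size factors, limma-voom (limma 3.58.1), library size alone, scaling to 12 epithelial genes, no filter, a filter of 1 CPM in 3 or more libraries, a block for replicate number, and fits without each library in turn. Text names all 10 genes, up to 4 called genes of each related list by adjusted p or else its 2 most abundant, and the 3 genes most like each called member (log2 CPM, prior count 2). The genes and lists were chosen with earlier results of these data known. Promoters and their counts were handled in Python 3.11.15.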

Additional observations from a re-analysis of the deposited data

Results flagged for a closer look

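Dixon's test at the 95% level was applied to 36 sets of the 4 vehicle libraries and marked 3, where chance gives about 1.80. Fabp6 stood at 0.472 CPM in vehicle replicate 2, far above the other vehicle libraries at no more than 0.0636 CPM, which is 9 counts against 0 or 1. Pancreatic acinar markers took 0.0795% of counts in vehicle replicate 1, far above the others at no more than 0.00135%. Enterocyte markers took 3.73% of counts in vehicle replicate 3, below the other vehicle libraries at 4.05% to 4.07%. The T09 libraries lay lower still, at 3.38% to 3.66%.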

How the results depend on the processing

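Over all genes, 205 calls were higher and 409 lower. With DESeq2 they were 372 and 719. With the replicate number as a block they were 113 and 177. Leaving out 1 library gave 90 to 296 higher and 161 to 523 lower; T09 replicates 2 and 3 and vehicle replicates 3 and 4 each cut both counts by over 1.5 times, and vehicle replicate 1 the lower count (258). Scaled to the 12 epithelial genes, 2834 genes were called higher, since that scaling moved log2 fold changes by a median of 0.30. Of the 10 bile acid genes, 5 were then higher, Abcc2 at 0.95, Nr1h4 at 0.93, Nr5a2 at 0.69, Abcc3 at 0.63 and Slc51a at 0.60, beside a median of 0.32 over all genes. DESeq2 called 2 (Abcc2 and Nr1h4). With the replicate block, edgeR called 0 (4 at an unadjusted p under 0.05), Abcc2 standing at 0.61 (adjusted p 0.0607). Without 1 library edgeR called 0 to 2: 2 without T09 replicate 1 or vehicle replicate 2, and 0 (2 to 4 at an unadjusted p under 0.05) without any of the others. No member was called lower in any alternative (1 at an unadjusted p under 0.05, Slc10a2 with no filter).

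Single genes were followed through the alternatives only for the 7 genes tested and for the related-list genes chosen by the naming rule. Among these, signs turned for 5, none of them called in the fit with TMM. The other genes named were not followed. Slc51b was -0.02 with library size alone, -0.03 with the block, and -0.05 to 0.17 without 1 library. Scaled to epithelial genes, Vdr was 0.11 (-0.17 with TMM), Hnf4a 0.00 (-0.29 with TMM), Gata4 0.22 and Abcc1 0.19. Without 1 library, Vdr ran between -0.25 and 0.01, Gata4 between -0.19 and 0.01, and Abcc1 between -0.18 and 0.01. The replicate numbers share only a number: deviations of same-numbered libraries correlated at 0.26, 0.03 and -0.03, and only T09 replicate 1 correlated best with its own number. Where a call was lost, the cause was not tested. At 10 or fewer counts per library, depth limits what can be said of Slc10a2, Fabp6 and Fgf15.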

Other observations

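Vehicle replicate 2, the highest vehicle mouse for 5 of the 7 bile acid genes tested, was also the highest vehicle mouse for several genes outside the set, chosen after their values were seen. Cyp3a11, a P450 enzyme that hydroxylates bile acids, read 4090, 4653 and 6126 CPM in T09 mice, against 3741 CPM in vehicle replicate 2 and 1997 to 2367 CPM in the other vehicle mice (edgeR adjusted p = 0.0494). The drug efflux pump Abcb1a read 539.8, 897 and 733 CPM in T09 mice, against 542 CPM in vehicle replicate 2 and 327 to 428 CPM in the other vehicle mice (edgeR adjusted p = 0.0634). Akr1b7, an aldo-keto reductase, read 188, 259 and 319 CPM in T09 mice, against 208 CPM in vehicle replicate 2 and 109 to 159 CPM in the other vehicle mice (edgeR adjusted p = 0.137). All 3 belong to families of close copies, so shared reads leave their values uncertain.

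Slc27a2, a ligase of very long chain fatty acids and bile acids, read 239, 243 and 305 CPM in T09 mice, against 218, 180.2, 129 and 150.4 CPM in vehicle mice. The groups did not overlap, but the gene did not pass (edgeR adjusted p = 0.0834). Gata6, a partner of Gata4 in the intestine, read 180.4, 181 and 165 CPM in T09 mice, below all vehicle mice at 196, 189, 233 and 234 CPM, and did not pass either (edgeR adjusted p = 0.219).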
